A study of Arabidopsis thaliana with 6 samples.

Results

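A set of 133 probe sets was chosen for transcripts that were far lower at normal CO2 than at low CO2 and about equal in light and in darkness at low CO2, out of 22746 on the array (0.585%). The plants were pgm mutants of Arabidopsis thaliana (Col-0), 5 to 6 weeks old, whose whole rosettes were profiled on 6 single-colour arrays with 2 biological replicates, A and B, in each of 3 groups. Every plant in all 3 groups carried the pgm mutation, and no wild type entered the comparison. Each group spent 4 hours in its condition: the first at low CO2 with the night prolonged, the second at low CO2 but lit, and the third lit at normal CO2. The RNA of an array came from pooled rosettes. Intensities are those the authors deposited, 1 per probe set on a linear scale, and differences are given as log2(intensity + 7.3), which understates the differences of dim probe sets.

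A member had to be lower by at least 2 on this scale at normal CO2 in light than at low CO2 in light, with group means in light and darkness at low CO2 less than 0.5 apart. In addition, both arrays of normal CO2 had to lie below all 4 arrays of low CO2, and the mean intensity at low CO2 in light had to reach 50. The lower level at normal CO2 and the small difference between light and darkness were therefore set by the choice and are described here without a test. The first criterion was met by 274 probe sets, 259 of them also had separated arrays, 254 were bright enough, and 139 had the small light difference. Of these 139, the rule leaves out 6 by name: ATG8E, ATG8H, IVD, ETFQO, STZ and AT2G20670. Among the 133 members, 57 probe sets carried a single gene in the platform annotation, 4 carried several and 72 carried none, and the unnamed ones are given by probe set ID or as a group. A listed gene is called measured here when a named probe set stood for it. A gene that was not measured in this sense may still lie on an unnamed probe set, members included. The 57 named probe sets stood for 57 genes, and 6 members were of the type that can bind transcripts of several genes, so their levels cannot be assigned to 1 gene.

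Plants that run out of sugar turn on a transcript programme in which the kinase SnRK1 and its downstream bZIP transcription factors take a central part, and in which amino acids, proteins and lipids are broken down in place of carbohydrate. The pgm mutant lacks plastidic phosphoglucomutase, makes almost no starch and so has little reserve when photosynthesis stops, as it does in darkness and, for want of substrate, in light at low CO2. Light also acts on transcripts through photoreceptors, apart from the sugar that it yields, and light given at low CO2 is a way to set these inputs apart. Sugars were not among the measurements used here, and no sample from before the treatment or from darkness at normal CO2 was analysed here, so a rise at low CO2 and a fall at normal CO2 cannot be told apart. In whole rosettes, fewer cells of a type and less RNA per cell cannot be told apart either.

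Scaling preceded deposit, as each array had the same trimmed mean of 100.01, with median intensities from 34.5 to 39.5. The ratio of 3 prime to 5 prime ubiquitin controls, a sign of RNA integrity, ran from 1.38 to 1.48 on the low CO2 arrays and was 1.69 and 1.95 on those of normal CO2, while that of GAPDH ran from 0.949 to 1.13 over all arrays. The arrays of normal CO2, on which all members were low, thus also had the higher ubiquitin ratios, and the part of this in the members' levels was not tested. Leaf markers were bright on every array, with intensities of 1448.4 or more for RCA, PSAE-1, PSAN, LHCB4.2 and SBPASE, the 5 measured of 16, and their differences between normal and low CO2 in light lay between -0.04 and 0.15 (0 of 5 called by limma and 0 at an unadjusted p under 0.05). Of 9 root markers 2 were measured, with intensities of 295.7 to 542.6 for PYK10 and 7.8 to 17.8 for EXPA7 over the arrays (differences of -0.11 and -0.42), and none of the 8 flower markers had a named probe set. The reference genes TIP41, SAND and UBC21 (PEX4) differed by 0.17, 0.18 and -0.06 between normal and low CO2 in light and by -0.29, -0.49 and -0.40 between light and darkness (limma adjusted p from 0.511 to 0.851 and from 0.194 to 0.539). At an unadjusted p under 0.05, 0 of the 3 passed in the first comparison and 2 in the second, where all 3 were lower in light.

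As a set, the members were bright at low CO2 and near the array median at normal CO2. Their median intensity was 284 and 549 in darkness (A and B), 312 and 422 in light at low CO2, and 48 and 45.8 at normal CO2, where the median of all probe sets was 39.5 and 36.1. At low CO2, 77 members in darkness and 76 in light were above the 90th percentile of the array, which stood at 307 in both groups, and 7 were above the corresponding percentile, 298, at normal CO2. The median difference of normal from low CO2 in light was -2.53, or 5.78-fold lower, against a median of -0.01 over all probe sets. It reached -5.54, or 46.6-fold, and 41 members were lower by 3 or more and 9 by 4 or more. Folds are taken after the addition of 7.3, so they are smaller than plain ratios of intensities, most of all for dim probe sets. For scale, 114 of the 133 were called lower in the limma fit where 6.20% of all probe sets were, a share that follows from the choice. In light, 70 members were higher than in darkness and 63 lower, with a median difference of 0.03.

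**Figure D1:**
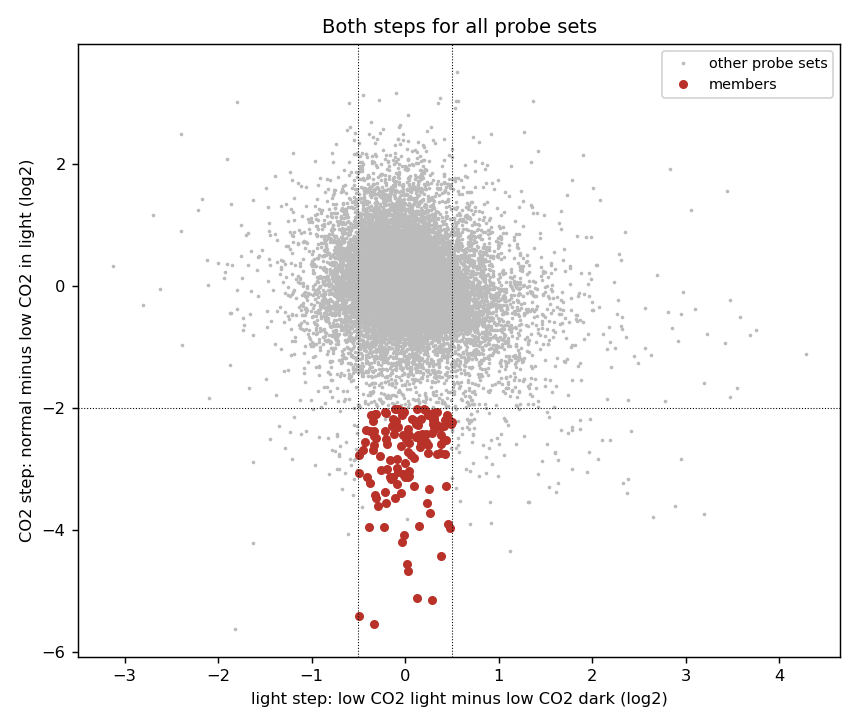
Difference between normal and low CO2 in light (vertical axis, log2) against the difference between light and darkness at low CO2 (horizontal axis, log2) for all 22746 probe sets, as group means of 2 arrays, with the 133 members in red and dotted lines at the thresholds of -2 and 0.5. The members fill the lower middle of the plot from -2.01 to -5.54, and their edges are those of the rule.

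On the scale of log2(intensity + 7.3), the largest difference belonged to probe set 252415_at, which has no gene in the annotation used here. It read 2453.5 and 3426.2 in darkness, 1505.9 and 3511.8 in light at low CO2, and 49.1 and 36.1 at normal CO2. Probe sets 253161_at (-5.42), 267461_at (-5.16) and 247954_at (-5.12) came next, also unnamed. The first of these read 3285.3 and 4811.6 in darkness, 1654.2 and 4790.2 in light at low CO2, and 57.6 and 59.8 at normal CO2, which made it the brightest member at low CO2 in light. 267461_at went from 1016.7 and 2280.8 in darkness and 1077.4 and 3186.9 in light at low CO2 to 37.7 and 53 at normal CO2. The fourth, 247954_at, went from 762.8 and 1875.6 in darkness and 791.6 and 2150.6 in light at low CO2 to 22.3 and 40.6 at normal CO2. Both replicates of all 4 probe sets were above 700 at low CO2 and below 60 at normal CO2.

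Next in size was 267357_at, with 889.8 and 1143.3 in darkness, 812.5 and 1308.5 in light at low CO2, and 35.1 and 31.4 at normal CO2. The dimmer 245668_at read 166.1 and 360.3 in darkness, 184.9 and 332.5 in light at low CO2, and 3 and 4.1 at normal CO2. Both were followed by 253061_at, with 48.9 and 55.1 at normal CO2, against 833 and 1141.8 in darkness and 879.4 and 1835.1 in light at low CO2. These 3 had a replicate B above replicate A in both low CO2 groups, as had 246114_at, with 85.9 and 203.9 at normal CO2, against 2246.6 and 3124.3 in darkness and 1794.5 and 3732.5 in light at low CO2. These 4 unnamed probe sets differed by -4.68, -4.56, -4.43 and -4.21, and their levels in light and darkness overlapped on each. Of the 12 largest differences, 10 were on unnamed probe sets, among them also 257315_at, with 333.2 and 1309.3 in darkness, 338.4 and 2510.0 in light at low CO2, and 39 and 68.7 at normal CO2. The last of the 12, 264524_at, read 238.7 and 1228.1 in darkness, 120.2 and 1382.7 in light at low CO2, and 17.1 and 22.8 at normal CO2. In both of these, replicate B stood far above replicate A at low CO2, in light and in darkness.

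The named members with the largest differences were AT2G05540, a glycine-rich protein gene, and AT5G19120, which encodes a protein of the aspartyl protease family. AT2G05540 read 1184.2 and 1424.3 in darkness, 1137.1 and 1449.1 in light at low CO2, and 80.0 and 58.8 at normal CO2, a difference of -4.09 (17-fold). AT5G19120 read 1966.1 and 2259.8 in darkness, 1563 and 2071.3 in light at low CO2, and 91.7 and 128.9 at normal CO2, a difference of -3.96 (15.6-fold). In both genes the 4 arrays of low CO2 lay close together and far above both arrays of normal CO2.

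**Figure D2:**
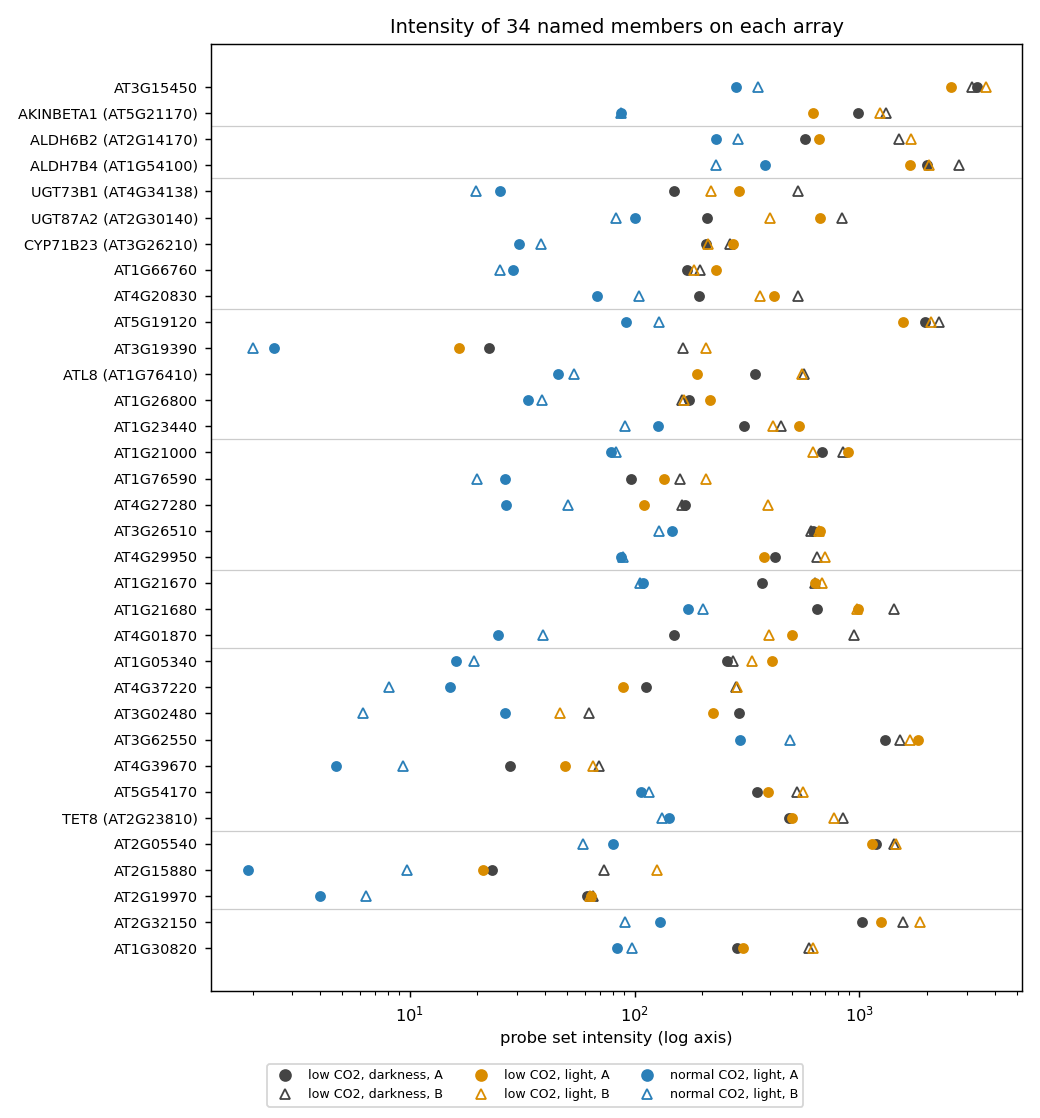
Probe set intensity (horizontal log axis) of 34 named members on each of the 6 arrays, grouped by role, with darkness in black, light at low CO2 in orange and normal CO2 in blue, replicate A as filled circles and replicate B as open triangles. Blue symbols lie left of all others in every row, as the rule requires. Black and orange symbols overlap in some rows and are apart in others, as in AT1G05340, AT3G62550 and AT3G26510, where orange lies to the right.

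AT3G15450, an Arabidopsis gene of the SEN5 type whose transcript is widely used as a marker of sugar starvation, was the brightest named member. It read 3322.2 and 3154.3 in darkness, 2562.9 and 3639.2 in light at low CO2, and 281.9 and 353.2 at normal CO2, a difference of -3.25 (9.48-fold). AKINBETA1 (AT5G21170), a beta subunit that helps to place and target the SnRK1 kinase, read 985 and 1318.1 in darkness, 620.8 and 1236.6 in light at low CO2, and 87 and 87.1 at normal CO2, a difference of -3.23. Its levels in darkness and in light at low CO2 overlapped, with a light difference of -0.38.

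The other beta subunits had values unlike those of AKINBETA1, a difference between genes that was not tested. AKINBETA2 (AT4G16360) read 78.5 and 82.5 in darkness, 86.1 and 77.7 in light at low CO2, and 129.5 and 143.8 at normal CO2, and it rose at normal CO2 by 0.69 ± 0.15 (SE, n = 2 per group, limma adjusted p = 0.0294). AKINBETA3 (AT2G28060) differed by -0.23 ± 0.17 (adjusted p = 0.430), and the other 4 of 7 subunits in the list of SnRK1 kinase genes were not measured by a named probe set. The call of AKINBETA2 ended whichever single array was left out (adjusted p from 0.0519 to 0.17) and, at 0.0519, with the arrays set to a common median.

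Of the 17 starvation markers listed, GAT1_2.1 was the single gene measured outside the members, a gene for a class I glutamine amidotransferase-like protein, and it met the rule except for the separation of arrays. Its brighter probe set read 7.5 and 88.1 in darkness, 2.5 and 213.9 in light at low CO2, and 2.8 and 2.4 at normal CO2, so it was low on replicate A at low CO2 too (-2.23 ± 1.49, limma adjusted p = 0.386). The bZIP factors of groups C and S1 act downstream of SnRK1, and 2 of 9 were measured. BZIP53 fell from 353.5 and 628 at low CO2 in light to 181 and 243.2 at normal CO2 (-1.14 ± 0.28, n = 2 per group, limma adjusted p = 0.0455), and BZIP44 differed by -0.18 (adjusted p = 0.742). The call of BZIP53 ended with a pseudocount of 32 (adjusted p = 0.0535) and without low CO2 dark A (0.0716) or B (0.0715), low CO2 light B (0.115), or normal CO2 A (0.2) or B (0.148). FLZ zinc finger proteins bind SnRK1, and of the 11 measured of 16 0 passed in limma in either direction and 3 had an unadjusted p under 0.05 (median 0.38, against -0.01 over all probe sets), with differences from -0.99 for FLZ12 ± 0.26 (adjusted p = 0.0517) to 1.37 for FLZ14 ± 0.45 (adjusted p = 0.0957).

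Amino acid breakdown was represented by ALDH6B2, methylmalonate-semialdehyde dehydrogenase of valine breakdown, and by ALDH7B4, an aldehyde dehydrogenase of the antiquitin type linked to lysine breakdown and stress. ALDH6B2 read 574.6 and 1493 in darkness, 663.9 and 1701.6 in light at low CO2, and 229.7 and 287.4 at normal CO2, so replicate B was more than 2-fold above replicate A in both low CO2 groups. With a difference of -2.02 it was among the members nearest to the threshold of -2. ALDH7B4 read 1988.1 and 2762.1 in darkness, 1675 and 2046.8 in light at low CO2, and 379.1 and 230.7 at normal CO2, a difference of -2.62. Of the 6 other aldehyde dehydrogenase probe sets with a single gene, 0 fell and 1 was called higher, beside 6.20% and 8.40% of all probe sets, and their median difference was -0.08. The called gene, ALDH3F1, rose by 1 on the log2 scale at normal CO2 (limma adjusted p = 0.0156).

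Among the 8 measured genes of the list of branched-chain and lysine breakdown that are no members, 3 fell, 0 rose and the median was -1.01, where 6.20% of all probe sets were called lower and 8.40% higher. The list was chosen with earlier results of these data known, so these shares are a description only. AT4G33150, the lysine-ketoglutarate reductase gene LKR, fell by 2.43 ± 0.25 (SE, n = 2 per group, limma adjusted p = 0.00674), from 393 and 562.2 in darkness and 231.2 and 341.5 in light at low CO2 to 42.4 and 50.1 at normal CO2. It is no member because darkness stood above light at low CO2 (-0.73). D2HGDH, a hydroxyglutarate dehydrogenase, fell by 0.85 ± 0.14 (adjusted p = 0.0153), and its call ended without low CO2 light B (0.055). The electron-transfer flavoprotein genes ETFB and ETFA, whose products pass electrons to ETFQO, differed by -0.62 and -0.20 (adjusted p = 0.152 and 0.611), and MGL, methionine gamma-lyase, by -2.15 ± 0.55 (adjusted p = 0.0503). E1A2 (AT5G09300) of the same list was not called but differed the other way, by 0.92 ± 0.28 (adjusted p = 0.0771), from a dim level. Without either array of normal CO2, 0 probe sets on the whole array were called in this comparison, so each call here needs both of them. AIM1 of fatty acid beta-oxidation and ICL of the glyoxylate cycle, the 2 measured of 15 genes in that list, differed by -0.16 and 0.05 (adjusted p = 0.594 and 0.824), with ICL below an intensity of 3 on every array.

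**Figure D3:**
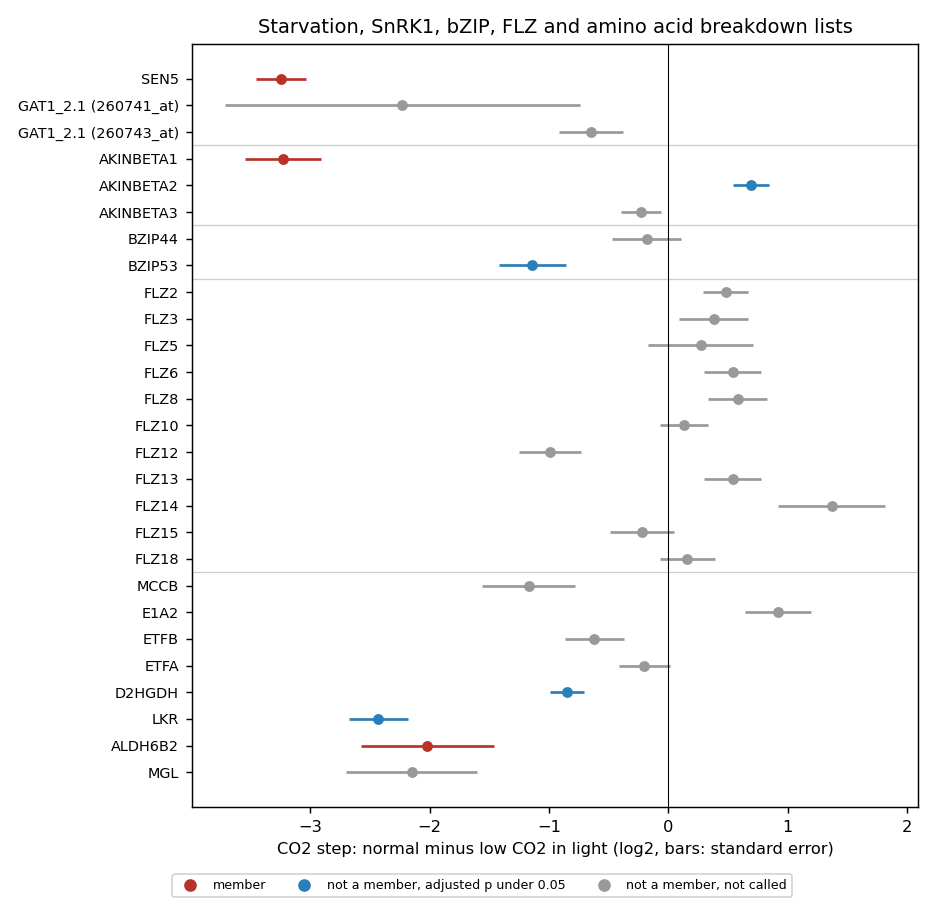
Difference between normal and low CO2 in light (log2, points, with the standard error of the limma fit as bars, 2 arrays per group) for measured genes of 5 lists, with members in red, other genes past an adjusted p of 0.05 in blue and the rest in grey. AKINBETA1 at -3.23 and AKINBETA2 at 0.69 lie on opposite sides of 0, and the 11 FLZ genes run from -0.99 to 1.37.

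Enzymes of glycosyl transfer and oxidation, together with a transporter, formed another group of members. UGT73B1, a UDP-glycosyltransferase of secondary metabolites, read 149.1 and 534.9 in darkness, 292.1 and 218.6 in light at low CO2, and 25.3 and 19.7 at normal CO2, a difference of -3.13. UGT87A2, another UDP-glycosyltransferase, read 209.3 and 837.9 in darkness, 667.8 and 398.5 in light at low CO2, and 100.7 and 82.7 at normal CO2, a difference of -2.41. In both genes replicate B was the higher array in darkness and replicate A the higher in light at low CO2, so the near-zero light difference of the group means joins a higher level in light in A to a lower level in B. For UGT87A2 these light differences were 1.64 in A and -1.06 in B. CYP71B23, a cytochrome P450, read 207.8 and 265.8 in darkness, 273.9 and 213.1 in light at low CO2, and 30.6 and 38.4 at normal CO2. AT1G66760, a transporter of the MATE type, read 171.5 and 196.1 in darkness, 229.7 and 184.3 in light at low CO2, and 28.8 and 25.2 at normal CO2. AT4G20830, an oxidase of the berberine bridge enzyme family, read 192.6 and 533.4 in darkness, 416.1 and 361.1 in light at low CO2, and 67.9 and 104.4 at normal CO2. All 5 genes of this group had the higher array in replicate B in darkness and in replicate A in light, and their differences at normal CO2 ran from -2.11 to -3.13. The group was put together after values were seen. Of all 133 members 24 had this replicate pattern, AT1G21000 and AT4G01870 of other groups among them.

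The other UDP-glycosyltransferase genes were spread about 0. Of their 45 probe sets with a single gene, 5 fell and 2 rose in limma, where 6.20% of all probe sets were called lower and 8.40% higher, and the median was -0.13. UGT71B6, UGT85A5, UGT84A3, UGT71C4 and UGT73D1 fell, by 1.72, 1.32, 1.25, 1.07 and 0.92 (adjusted p from 0.00823 to 0.0466), and all had a higher mean in light than in darkness at low CO2. UGT74B1, which acts in glucosinolate synthesis, rose by 2.06 (adjusted p = 0.019) and UGT78D1, a flavonol glycosyltransferase, by 1.76 (adjusted p = 0.0402).

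Genes of protein breakdown were found among the members beside AT5G19120. AT3G19390, a cysteine protease with a granulin domain, read 22.4 and 164.9 in darkness, 16.5 and 207 in light at low CO2, and 2.5 and 2 at normal CO2, so replicate B was far above replicate A at low CO2. ATL8 (AT1G76410), a RING-H2 protein of the ATL ubiquitin ligase family, read 343.2 and 569.1 in darkness, 189.7 and 557.5 in light at low CO2, and 45.7 and 53.8 at normal CO2, and the 3 other ATL genes with a named probe set were not called, also not at an unadjusted p under 0.05 (median 0.16). AT1G26800, another RING-type ubiquitin ligase, read 33.4 and 38.6 at normal CO2, against 174.5 and 161.8 in darkness and 215.6 and 165.7 in light at low CO2. This gene and AT5G19120 had close replicates, while ATL8 had a low array in light A. AT1G23440, of the pyroglutamyl peptidase family, read 126.6 and 91.1 at normal CO2, against 308.1 and 448.6 in darkness and 537.9 and 413.8 in light at low CO2, a difference of -2.06, and its second probe set, 262422_at, differed by -1.23.

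Among regulators, both AT1G21000 and AT1G76590 encode PLATZ proteins, plant zinc-binding proteins that repress transcription at A/T-rich DNA. AT1G21000 read 678.9 and 840.9 in darkness, 889.6 and 619.8 in light at low CO2, and 78.8 and 82.6 at normal CO2, a difference of -3.09. AT1G76590 read 96 and 159.7 in darkness, 134.7 and 208.3 in light at low CO2, and 26.4 and 19.9 at normal CO2, a difference of -2.53. The family was looked up after these values had been seen, and of its 5 other measured genes 3 fell and 0 rose, beside 6.20% lower and 8.40% higher over all probe sets, with a median of -1.23. AT1G32700 fell from 478.1 and 454.9 in darkness and 463.6 and 437.5 in light at low CO2 to 93 and 132.1 at normal CO2 (-1.95, limma adjusted p = 0.00579), and AT4G17900 fell by 1.82 (adjusted p = 0.00744). Both had small light differences (-0.05 and -0.20) and missed membership by the size of the CO2 difference. AT1G31040 fell by 1.23 from a dim level (adjusted p = 0.0446), and AT5G46710 and AT1G43000 differed by -0.88 and -0.15 (adjusted p = 0.0633 and 0.677).

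Other signalling genes were AT4G27280, which encodes a small EF-hand calcium-binding protein, AT3G26510, with a PB1 domain, and AT4G29950, a Rab GTPase-activating protein. AT4G27280 read 167 and 161.8 in darkness, 110.4 and 392.5 in light at low CO2, and 26.8 and 50.7 at normal CO2, with light B apart from the other 3 low CO2 arrays. AT3G26510 read 624 and 610.1 in darkness, 667.5 and 662.8 in light at low CO2, and 146.6 and 128 at normal CO2, and its 4 low CO2 arrays lay close together. AT4G29950 read 87.3 and 89.1 at normal CO2, against 420.4 and 649.9 in darkness and 377.3 and 699.7 in light at low CO2. The differences of these 3 genes were -2.29, -2.22 and -2.45.

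Proteins with a TolB-like or DPP6-like beta-propeller were represented by AT1G21670, AT1G21680 and AT4G01870. AT1G21670 read 369.1 and 634 in darkness, 633.1 and 680.1 in light at low CO2, and 109.2 and 106.2 at normal CO2. AT1G21680 read 647.1 and 1425.3 in darkness, 986.1 and 974.6 in light at low CO2, and 172.7 and 200.7 at normal CO2. These genes are next to each other on the chromosome in the TAIR10.1 gene order, the single adjacent pair among the 57 member genes, and differed by -2.53 and -2.35. AT4G01870 read 149.3 and 941.5 in darkness, 500.8 and 398.1 in light at low CO2, and 24.6 and 39 at normal CO2, a difference of -3.56, with its 2 dark arrays on either side of its light arrays.

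Protein-coding genes next to members on the chromosome were mostly not called. Of 57 such neighbours with a named probe set and no membership, 6 fell and 3 rose in limma, with a median of -0.09, beside 6.20% and 8.40% of all probe sets. AT1G76600, next to the PLATZ gene AT1G76590, fell from 111.2 and 312 in darkness and 740.9 and 467.2 in light at low CO2 to 42.9 and 58 at normal CO2 (-3.38, adjusted p = 0.0105), with a light difference of 1.62 at low CO2. AT4G39675, next to AT4G39670, fell by 2.29 (adjusted p = 0.0281) with a light difference of -1.35.

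A further group held proteins of stress tolerance, membranes and lipids. AT1G05340, a small cysteine-rich membrane protein of the CYSTM type, read 257.4 and 275 in darkness, 406.5 and 331.2 in light at low CO2, and 16.1 and 19.4 at normal CO2, a difference of -3.90. At low CO2 both of its light arrays lay above both dark arrays, with a light difference of 0.45 (limma 95% interval 0.06 to 0.84). AT4G37220, of the WCOR413 family of cold-acclimation membrane proteins, read 111.9 and 282.6 in darkness, 88.9 and 284.7 in light at low CO2, and 15.1 and 8.1 at normal CO2. AT3G02480, a late embryogenesis abundant protein, read 292.6 and 62.5 in darkness, 223.8 and 46.4 in light at low CO2, and 26.5 and 6.2 at normal CO2. AT4G37220 was higher on replicate B at low CO2 and AT3G02480 on replicate A, in darkness and in light. AT3G62550, of the universal stress protein family, was bright throughout, with 295.8 and 489.5 at normal CO2, against 1300.2 and 1522 in darkness and 1825.8 and 1673.2 in light at low CO2. AT4G39670, a glycolipid transfer protein, read 4.7 and 9.3 at normal CO2, against 27.9 and 69.4 in darkness and 49.1 and 65.5 in light at low CO2. AT5G54170, with a lipid-binding START domain, had the smallest difference of all members (-2.01), with 107.1 and 115.8 at normal CO2, against 348.9 and 529.1 in darkness and 393 and 562.9 in light at low CO2. TET8 (AT2G23810), a tetraspanin found on extracellular vesicles, read 142.4 and 132.8 at normal CO2, against 483.9 and 843.2 in darkness and 501.4 and 774.5 in light at low CO2.

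Drought and cold markers outside the members gave mixed values. COR47, a dehydrin, fell by 1.86 ± 0.33 (SE, n = 2 per group, limma adjusted p = 0.0188), from 959.5 and 1681.3 in darkness and 910.4 and 765.5 in light at low CO2 to 289.4 and 174.5 at normal CO2, and this call ended when any single array of the 2 lit groups was left out (adjusted p from 0.0582 to 0.135). COR15A, a chloroplast cold-regulated protein, differed by -0.10 (adjusted p = 0.969), with 1064.9 and 93.9 in darkness, 845.9 and 379.3 in light at low CO2, and 807.7 and 345 at normal CO2, so that, like AT3G02480, it was higher on replicate A in each group. These were the 2 measured of 12 genes in the list. PDF1.2, a defensin and the single measured wound and defence marker, was instead higher on replicate B in each group, from 12.2 against 373.6 in darkness to 56.5 against 356.5 at normal CO2. The part of either marker in the replicate differences of the members was not tested. SAG101, the single listed senescence gene with a named probe set, differed by -0.89 (adjusted p = 0.0884). The clock gene GI differed by -0.68 (0.312) and EXO, a growth-related extracellular protein, by -0.07 (0.942). No gene of trehalose-6-phosphate metabolism had a named probe set.

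Proteins outside the cell or in its wall were AT2G15880, a leucine-rich repeat extensin, and AT2G19970, of the CAP family that includes pathogenesis-related protein PR-1, beside AT2G05540. AT2G19970 was dim and had the most even low CO2 arrays of any member, with 61.5 and 65 in darkness, 64.2 and 63.5 in light at low CO2, and 4 and 6.4 at normal CO2. AT2G15880 was dim too and uneven, with 23.2 and 72.9 in darkness, 21.1 and 126.1 in light at low CO2, and 1.9 and 9.7 at normal CO2. Of other enzymes, AT2G32150, a hydrolase of the haloacid dehalogenase type, read 1027.1 and 1562.9 in darkness, 1252.7 and 1852.2 in light at low CO2, and 129.7 and 90.2 at normal CO2, a difference of -3.73. AT1G30820, CTP synthase, which makes the cytidine nucleotide used in RNA and phospholipid synthesis, read 284 and 597.9 in darkness, 303.3 and 619 in light at low CO2, and 83.8 and 97 at normal CO2, a difference of -2.18.

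For 23 named members no role is given here. They differed by -2.06 to -3.94, with a median of -2.37, and the largest were AT3G15630 (-3.94), AT3G10020 (-3.57), AT1G22890 (-3.48), AT1G68440 (-3.28), AT1G19530 (-3.28) and AT1G25400 (-3.14). AT3G15630 read 463 and 874.4 in darkness, 402.1 and 1228.5 in light at low CO2, and 34.1 and 44.4 at normal CO2. AT3G10020 read 854.9 and 1065.8 in darkness, 600.5 and 1133 in light at low CO2, and 63.3 and 62.5 at normal CO2. Both were higher on replicate B at low CO2, whereas AT1G68440 was so in light alone (523.9 and 517.2 in darkness, 365.7 and 841.3 in light at low CO2, and 58.9 and 43.1 at normal CO2). AT2G15960 was the brightest of the 23 on all low CO2 arrays but light A, with 2026 and 2774.2 in darkness, 1527.6 and 2040.1 in light at low CO2, and 385.7 and 294.3 at normal CO2. On light A it was AT5G61820, with 877.4 and 1215.2 in darkness, 1887.2 and 767.9 in light at low CO2, and 238.7 and 163.5 at normal CO2. The remaining ones were AT4G28085, AT3G03870, AT4G16680, AT1G10340, AT1G10140, AT1G22930, AT3G11690, AT4G16000, AT1G21520, AT1G69890, AT2G18690, AT1G51270, AT5G10695, AT1G15010 and AT1G67920. A second probe set of AT1G51270, 265135_at, differed by -0.77, against -2.2 for the member 265136_at. The 72 unnamed members had a median difference of -2.57 and a median intensity of 552 at low CO2 in light, against 54.2 at normal CO2. Beside those with the largest differences, the brightest unnamed member was 256772_at, with 2882.9 and 3084.3 in darkness, 2229.3 and 3062.9 in light at low CO2, and 407.2 and 447 at normal CO2. It was followed by 261901_at, with 2698.9 and 2875.6 in darkness, 2183.9 and 3042.4 in light at low CO2, and 551.3 and 478.2 at normal CO2, and both had close replicates in darkness.

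The 2 replicates of the low CO2 groups stood further apart on the members than over the array. In darkness, 119 of 133 members were higher on replicate B than on replicate A (89.5%, against 47.0% of all probe sets), with a median difference of 0.61 against -0.02. In light at low CO2 it was 100 of 133 (75.2% against 54.2%), with a median of 0.65 against 0.03. At normal CO2 it was 69 of 133 (51.9% against 37.6%), with a median of 0.01 against -0.08. B exceeded A by 1 or more in 44 members in darkness and 45 in light, 33.1% and 33.8% of them, where 1.33% and 1.55% of all probe sets did so. Over the 9804 probe sets with a mean of at least 50 at low CO2 in light, members included, the median differences were 0.00 in darkness and -0.01 in light. The rule used all 6 arrays, so these differences are described and not tested. The 3 prime bioC spike-in control was also higher on replicate B in each group, at 116.2, 144.6 and 157.3 against 72.4, 66.3 and 73.8 on A, normal CO2 included, and its part in the members' values was not tested.

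**Figure D4:**
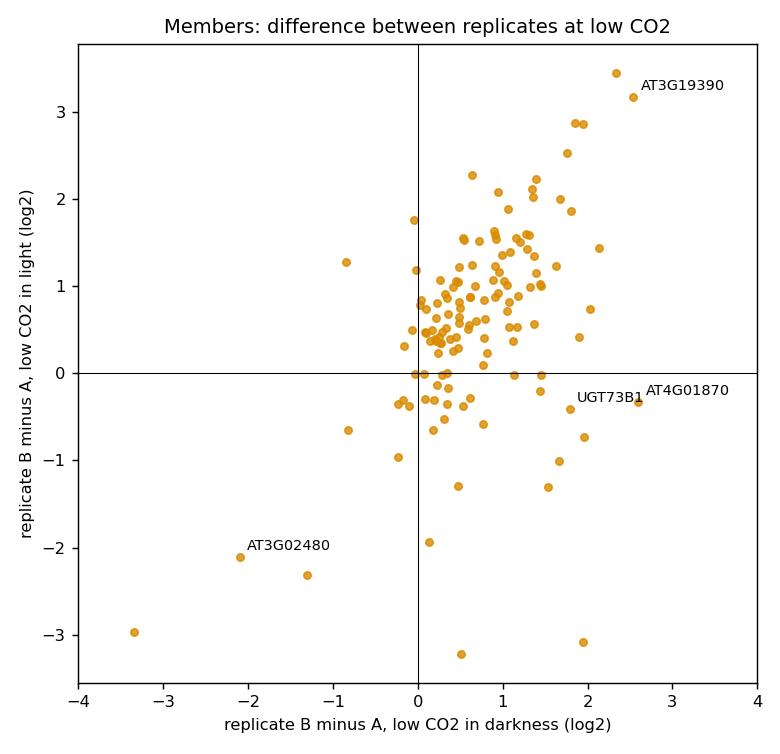
Replicate B minus replicate A (log2) in darkness (horizontal axis) and in light (vertical axis), both at low CO2, for each of the 133 members, with 4 genes labelled. Most members, 95 of 133, lie in the upper right, higher on B in both groups, while UGT73B1 and AT4G01870 lie at the lower right and AT3G02480 at the lower left.

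Of the 133 members, 95 were higher on replicate B in both low CO2 groups, 24 were higher on B in darkness and on A in light, 5 the reverse and 9 higher on A in both. Replicate B was higher by at least 1 in both groups in 24 members, 10 of them named: AT3G19390, AT1G25400, AT1G19530, AT2G15880, AT1G69890, ALDH6B2, AT1G15010, AT4G37220, AT1G21520 and AT1G30820. Replicate A was higher by at least 1 in both groups in 3 members, AT3G02480, 247718_at and 262128_at. 247718_at read 786.6 and 71 in darkness, 712.2 and 84.7 in light at low CO2, and 65.9 and 4.7 at normal CO2, so its level on dark B was close to that at normal CO2 on A. At the other end, 27 members had replicates within 0.5 of each other in both low CO2 groups, among them AT2G05540, AT5G19120, AT1G05340, ALDH7B4, CYP71B23, AT1G66760, AT3G26510 and AT2G19970. The difference between normal and low CO2 was the larger in replicate B in 102 of 133 members, with medians of -2.38 in A and -2.87 in B, and it reached -2 in both replicates in 80.

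The data bound the light difference of single members loosely. In the limma fit the 95% interval of the difference between light and darkness had a median half-width of 0.93, lay within -1 and 1 for 49 of 133 members and within -0.5 and 0.5 for 3. Since members were picked for small means, these intervals show only what the arrays could resolve. The light difference had opposite signs in A and B in 71 members, and it was 1 or more in size in a replicate in 13 (9.77%, against 7.90% of all probe sets). In limma 0 members were called in the light comparison in either direction, which the rule favours, where 0.193% of all probe sets were called lower and 0.849% higher. At an unadjusted p under 0.05 it was 1 member, AT1G05340, higher in light with an interval of 0.06 to 0.84. Of all probe sets 3758 (16.5%) passed, a contrast that the choice of small light differences sets. Indifference to light thus describes the group means, while for most single members the interval reached beyond a change of 1 on the log2 scale. Repression by carbon likewise describes the response to CO2 supply, the quantity that was varied.

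Other probe sets that met the remaining criteria differed in light. At least 0.5 higher in darkness were 42 of them, with a median intensity of 570 in darkness, 348 in light at low CO2 and 42.2 at normal CO2. At least 0.5 higher in light were 73, with 114, 223 and 28.9, so they were dimmer than the members (441, 432 and 45.8) in each group. Their median differences between normal and low CO2 in light, -2.72 and -2.60, were close to the members' -2.53, and all 3 classes share their arrays and were separated by the light difference itself. In these classes B minus A had medians of 0.30 in darkness and 0.89 in light for the first, and 0.87 and 0.17 for the second.

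At the edges of the rule, ALDH6B2 (-2.02) and AT5G54170 (-2.01) were the nearest inside the threshold of -2, and AT3G51000 and AT5G18130 (-1.99 each) the nearest outside. For the light difference, 245885_at (-0.50) and AT2G18690 (0.50) were just inside, and AT1G13990 and AT5G08350, which also round to 0.50, just outside. For intensity, AT4G28085 (mean of 50.7 at low CO2 in light) and 253217_at (56) were inside, and 250182_at (48.7) and 264415_at (39.6) outside. The gap between the lowest array of low CO2 and the highest of normal CO2 was smallest in 247718_at (0.10) and 262128_at (0.25), and a single probe set, the brighter one of GAT1_2.1 (-0.04), failed on this criterion alone, where 17.2% of all probe sets met it. Across the members the median gap was 1.88, and it was 1 or more in 123.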

How the data were processed

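Transcript levels of pgm rosettes were measured on 6 arrays, 2 per group, and groups and replicate letters were taken from the sample titles. The authors deposited 1 linear intensity per probe set, made with MAS5 per the submitters' processing notes; no version, target value or present call was found in the labels. Of 22810 probe sets, 64 controls were set aside, leaving 22746. Probe sets were named through the platform's annotation and Entrez IDs in the TAIR10.1 table, also the source of gene order: 13513 probe sets had a single gene, 503 several and 8730 none, and none was named from several.

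Intensities were not normalized further and were transformed as log2(intensity + 7.3). The limma package (3.58.1, R 4.3.3) fitted 3 group means over the 6 arrays (lmFit, contrasts.fit, eBayes with a trend; 3 residual and 3.27 prior degrees of freedom), with Benjamini-Hochberg adjustment over all probe sets and a threshold of 0.05, and was tested on simulated data. All adjusted p-values come from it. Precision is limited by the number of arrays. The members and gene lists were chosen with earlier results of these data known. The rule for named genes took the 12 largest differences, the 5 brightest members, members of 16 gene lists (185 genes, 45 measured) and members sharing a family, and, of other list genes, up to 3 past the threshold or the 2 with the smallest p; the reference table holds no product names, so families were taken by symbol prefix, and the PLATZ, TolB-like and role groups were added after values were seen. Where a list gene had 2 probe sets, the brighter was counted. Alternatives were other pseudocounts, quantile normalization, a common median, a filter on dim probe sets, a replicate block and leaving out each array. Promoter motifs were planned and are not analysed here. The values of 1 list gene are not reported here.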

Additional observations from a re-analysis of the deposited data

How the results depend on the processing

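Single arrays moved many values. The rule was met by 133 probe sets, by 82 with a pseudocount of 32, by 75 with a light difference under 0.25, by 252 with a threshold of -1.5, and by 79 to 147 when single arrays were left out. Without low CO2 light B it was met by 79, of which 50 were members, and without low CO2 dark B by 88, of which 74 were members; without low CO2 light A it was met by 135, of which 73 were members. With a pseudocount of 1, quantile normalization, a common median and a minimum of 100 the count stayed within 1.5 times (158, 135, 145 and 118). The members' median difference between normal and low CO2 was -2.11 with a pseudocount of 32 and -2.36 to -2.83 without single arrays; its sign was set by the rule. Their median light difference was -0.06 within replicate A and ran from -0.35 to 0.38 without single arrays. Calls between normal and low CO2 numbered 3321 (1410 lower, 1911 higher) and 0 to 2744 without single arrays: 0 without either normal CO2 array and 1213 without low CO2 light B. With a common median they split into 1742 lower and 1574 higher. The light comparison had 237 calls, 368 and 145 with pseudocounts of 1 and 32, 648 with the filter on dim probe sets and 0 to 99 without single arrays; 0 of the calls were members under each of these and the other alternatives run. Of the 42 measured list genes outside the members, 6 were called, and 0 to 7 without single arrays (3 without low CO2 light B).

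The labels do not say that a replicate letter marks a shared batch. Deviations of same-lettered arrays correlated with 0.31 (both low CO2 groups), 0.16 (darkness and normal CO2) and 0.02 (light at low and normal CO2). With the letter as a replicate block, 3960 probe sets were called between normal and low CO2, 475 in the light comparison and 9 list genes, and 127 members were called lower against 114. Among single list genes, 24 combinations of gene and alternative lost a call and 15 gained one; among them MCCB (adjusted p = 0.0283), MGL (0.034) and FLZ14 (0.0196) were called with the block. The shares of promoter motifs were not run, because no promoter sequence was used here.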
